A study of Mus musculus with 7 samples.

Results

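The genes followed here make cholesterol and fatty acids under the control of the sterol regulatory element binding proteins (SREBPs), in the retinal pigment epithelium (RPE) of Mfrp rd6 mutant and wild-type (WT) mice. The list held 31 genes of sterol synthesis, SREBP control, sterol transport and uptake, and fatty acid synthesis. For 30 of them the array carried a probe set annotated to exactly 1 gene symbol, and the brightest such probe set stood for the gene, out of 19938 genes measured in the same way. Acat2 was not analysed here.

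RNA from the RPE of 3 Mfrp rd6 samples and 4 WT samples, all on the C57Bl/6J background, was hybridised to 1 whole-transcript array each. Mfrp is a membrane protein of the RPE with a frizzled-like domain, and rd6 is a recessive allele of it that is carried in the germline, so that all cells of the animal have it. The age field of the labels gives 12 weeks for all Mfrp rd6 samples and 8 weeks for all WT samples, by which age cannot be told apart from genotype. The growth protocol instead puts Mfrp rd6 replicate 1 alone at 12 weeks and every other sample at 8 weeks. The labels speak of animals without saying how many went into a sample or whether replicates came from different ones. The p-values therefore rest on the spread among these samples alone, and that spread may be technical.

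Values are the authors' log2 probe set signals. RPE markers other than Best1 were high in both groups. The mean over all 11 genes was 11.55 to 11.59 on the Mfrp rd6 arrays and 11.52 to 11.63 on the WT arrays. Best1 averaged 5.82 in Mfrp rd6 and 5.885 in WT, below the median probe set of 6.55. The cells were shaken from opened eyecups and pelleted, and RNA of other cells was present. The mean of 12 microglia and macrophage markers was 9.34 to 9.97 in Mfrp rd6 and 7.35 to 7.47 in WT, and that of 14 skeletal muscle markers was 7.46 to 8.25 in Mfrp rd6 and 6.59 to 7.43 in WT. Both were highest on the array of Mfrp rd6 replicate 2, which also read lowest for most genes described here, so results are given with and without that array.

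Cholesterol synthesis begins with acetyl-CoA, passes through mevalonate, farnesyl pyrophosphate and squalene, and ends in a series of sterol intermediates. SREBPs are made as membrane-bound precursors that Scap carries from the endoplasmic reticulum to the Golgi for cleavage when membrane sterol is low, while the Insig proteins hold Scap back when it is high. SREBP-2 acts mainly on the sterol genes and SREBP-1c mainly on the fatty acid genes. The RPE is known to take in lipid from shed photoreceptor outer segments every day, besides lipoprotein cholesterol from the choroid.

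Nearly all of these genes read lower in Mfrp rd6 than in WT, by small amounts, and none passed the test on its own. The median change over the 30 genes was -0.23 log2 units, or 14.5% lower on the linear scale, against -0.02 for all genes, and 27 of 30 changes were negative (90%, against 56.7% of all genes). With limma and Benjamini-Hochberg adjustment over all 19938 genes, 0 of 30 genes reached an adjusted p under 0.05, where 429 of all genes (2.15%) did, 162 of them lower (0.813%). Adjusted p of the 30 genes lay between 0.0743 (Fdps) and 0.997. At an unadjusted limma p under 0.05, 20 of 30 were lower (66.7%), against 9.37% of all genes, and 0 of 30 were higher, against 5.98% (15.4% of all genes in either direction). In 13 of 30 genes every Mfrp rd6 array lay below every WT array (43.3%), which held for 9.82% of all genes. Every Mfrp rd6 array lay above every WT array in 0 of 30, against 5.52% of all genes, and in the other 17 the groups overlapped. These genes share 7 arrays, so the counts are not those of independent genes.

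The array of Mfrp rd6 replicate 2 was the lowest of all 7 in 24 of the 30 genes (80%), against 14.8% of all genes. Without it the median change was -0.19 and 27 of 30 changes were negative (55.8% of all genes in that fit), 26 of them negative with all arrays too, as Insig1 turned positive and Scap negative. In that fit 11 of 30 genes were lower at an unadjusted limma p under 0.05 (36.7%), against 6.87% of all genes, with a lowest adjusted p of 0.236. Without Mfrp rd6 replicate 1, which leaves equal ages under the growth protocol, 0 of 30 genes passed and the median change was -0.26.

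**Figure D1:**
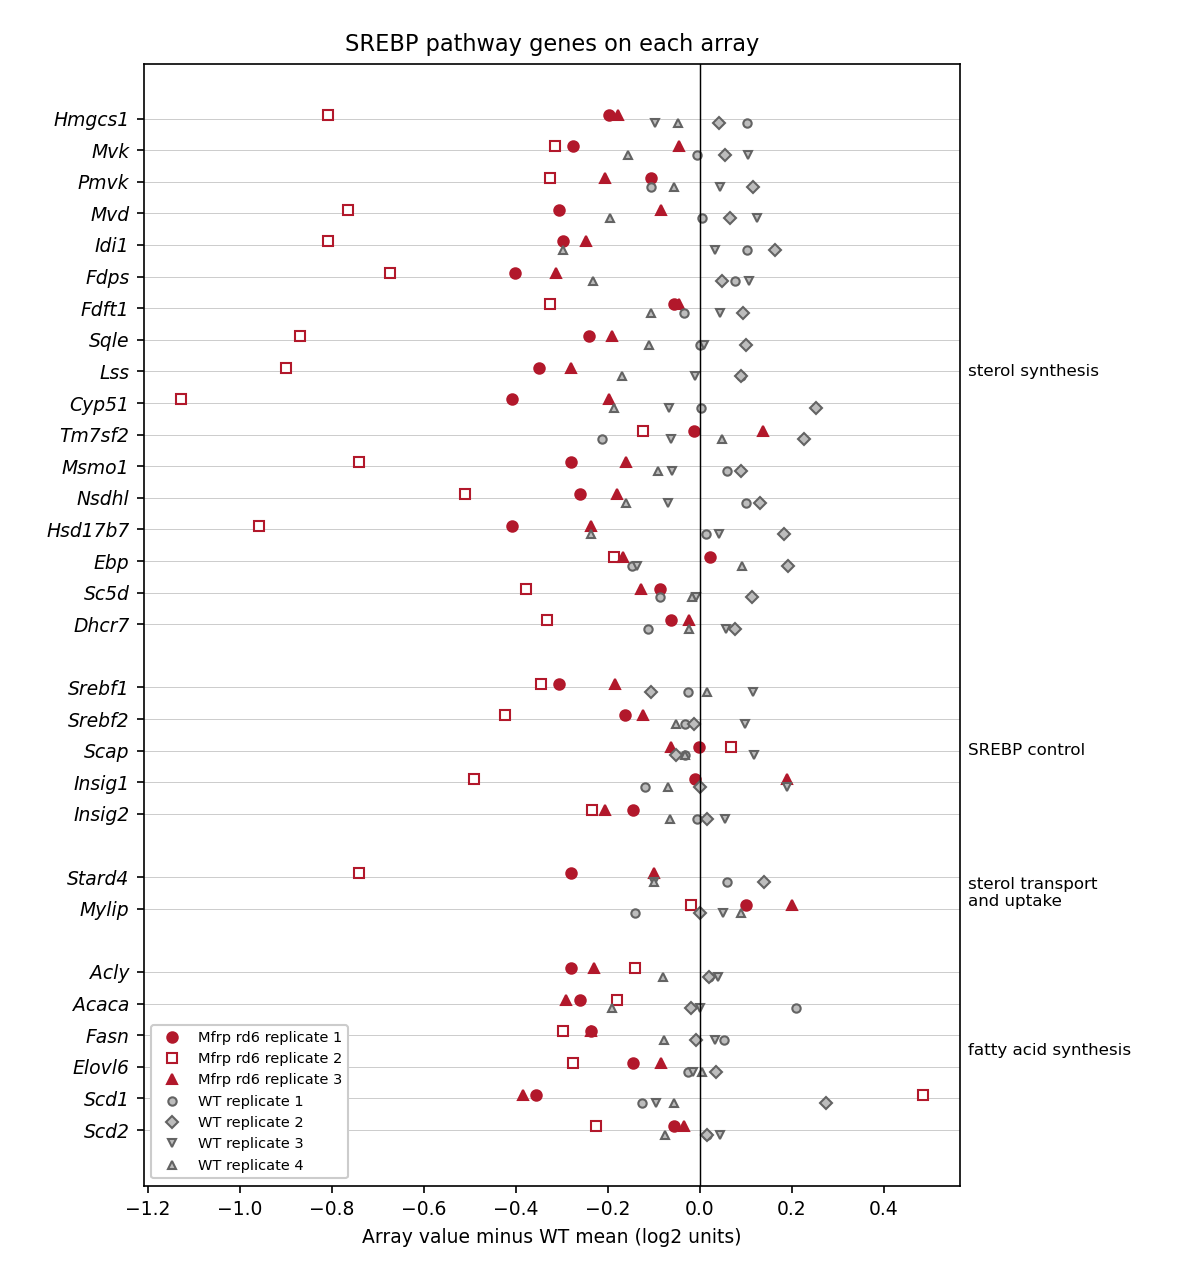
Value of each gene on each array minus that gene's WT mean, in log2 units, for the 30 genes by role; red symbols are the 3 Mfrp rd6 arrays and grey symbols the 4 WT arrays. The open squares of Mfrp rd6 replicate 2 lie farthest left in most sterol genes, down to -1.13 in Cyp51, and to the right in Scd1.

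In sterol synthesis, 16 of 17 enzymes read lower in Mfrp rd6 (94.1%, against 56.7% of all genes). The median change of the 17 was -0.39 log2 units (23.4% lower), and 0 passed the test. Mfrp rd6 replicate 2 was the lowest Mfrp rd6 array for all 17 enzymes. It was the lowest of all 7 arrays for 16 (94.1%, against 14.8% of all genes). The median deviation from the WT mean was -0.26, -0.67 and -0.18 in Mfrp rd6 replicates 1, 2 and 3, against 0.00, 0.10, 0.01 and -0.11 in WT replicates 1 to 4. Among the WT arrays, replicate 2 was the highest for 12 enzymes and replicate 4 the lowest for 11. Without Mfrp rd6 replicate 2 the median change was -0.20, and 16 of 17 changes stayed negative (55.8% of all genes in that fit).

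The first steps form mevalonate and its activated isoprene units. Hmgcs1, which condenses acetoacetyl-CoA with acetyl-CoA, read 10.28, 9.67 and 10.30 in Mfrp rd6, against 10.58, 10.52, 10.38 and 10.43 in WT, with no overlap between the groups. Its change was -0.39 (95% interval -0.72 to -0.07, limma adjusted p = 0.226), and -0.19 without Mfrp rd6 replicate 2. The kinases Mvk and Pmvk, which phosphorylate mevalonate in turn, both differed by -0.21, with overlapping groups in each. Without Mfrp rd6 replicate 2 they stood at -0.16 and -0.155. Mvd, which decarboxylates the product, read 8.02, 7.56 and 8.24 in Mfrp rd6 and 8.33, 8.39, 8.45 and 8.13 in WT, with Mfrp rd6 replicate 3 above WT replicate 4, and differed by -0.39 with all arrays and -0.20 without Mfrp rd6 replicate 2. Idi1, the isomerase that readies the isoprene unit for coupling, differed by -0.45 on the brighter of its 2 probe sets (-0.27 without Mfrp rd6 replicate 2) and by -0.42 on the other.

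Fdps, which joins isoprene units into farnesyl pyrophosphate, had the smallest limma p of the 30 genes. It read 10.34, 10.07 and 10.43 in Mfrp rd6 and 10.82, 10.79, 10.85 and 10.51 in WT, so that the groups did not overlap and WT replicate 4 lay nearest to the mutants. The change of -0.46 (SE 0.11) had an adjusted p of 0.0743 with limma. Exact permutation of the group labels (35 splits, two-sided) put p at 0.0571, with 0.0286 the smallest p that this design can reach. In that permutation test Hmgcs1, Sqle, Lss, Cyp51, Msmo1, Srebf1, Srebf2, Insig2, Acly, Fasn and Elovl6 did reach 0.0286. These permutation p-values are not adjusted for the number of genes. In each of these genes every Mfrp rd6 array lay below every WT array, which held for 9.82% of all genes. How many of all genes reach 0.0286 was not counted. Without WT replicate 4 Fdps passed (-0.54, adjusted p = 0.0457), and without Mfrp rd6 replicate 2 it stood at -0.36 (adjusted p = 0.236). Fdft1, which makes squalene from farnesyl pyrophosphate, differed by only -0.14 on 1 probe set and -0.18 on the other, and its groups overlapped. Without Mfrp rd6 replicate 2 the first probe set stood at -0.05.

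The squalene steps were lower on all 3 mutant arrays. Sqle, the squalene epoxidase, read 10.18, 9.55 and 10.23 in Mfrp rd6 and 10.42, 10.52, 10.43 and 10.31 in WT. Lss, which closes the rings to lanosterol, read 9.16, 8.61 and 9.23 in Mfrp rd6, against 9.60, 9.60, 9.50 and 9.34 in WT. In both genes the groups did not overlap, and Mfrp rd6 replicate 2 stood well below the other mutant arrays. The changes were -0.43 for Sqle (limma adjusted p = 0.203) and -0.51 for Lss (adjusted p = 0.123), and -0.22 and -0.32 without Mfrp rd6 replicate 2.

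The enzymes that turn lanosterol into cholesterol differed among themselves. Cyp51, the lanosterol demethylase, showed the lowest change of the 30 genes. It read 8.85, 8.13 and 9.06 in Mfrp rd6, against 9.26, 9.51, 9.19 and 9.07 in WT, so that Mfrp rd6 replicate 3 lay only just below WT replicate 4. The change was -0.58 (95% interval -1.02 to -0.14, limma adjusted p = 0.198), and -0.30 without Mfrp rd6 replicate 2. Hsd17b7, a sterol ketone reductase, read 9.07, 8.52 and 9.24 in Mfrp rd6 and 9.49, 9.66, 9.52 and 9.24 in WT, a change of -0.53 (adjusted p = 0.152) in which 1 array of each group tied. Without Mfrp rd6 replicate 2 the change of Hsd17b7 was -0.32. Msmo1, the sterol methyl oxidase, differed by -0.39 and Nsdhl, which acts with it in removing methyl groups, by -0.32, both without overlap, and each stood at -0.22 without Mfrp rd6 replicate 2. The last enzymes of the route differed less. Sc5d, a sterol desaturase, differed by -0.20, Dhcr7, which makes cholesterol from its last precursor in the route, by -0.14, and the isomerase Ebp by -0.11. Without Mfrp rd6 replicate 2 these were -0.11 for Sc5d, -0.04 for Dhcr7 and -0.07 for Ebp. Tm7sf2, a sterol reductase of the same route as Cyp51, differed by 0.00 (95% interval -0.24 to 0.25), and it was the only one of the 17 enzymes whose lowest array was a WT array.

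Promoters of this group are shown because sterol genes read low together on the same arrays. RefSeq promoter windows of assembly GRCm38.p6, from 250 bases before to 50 bases after a gene's start, were on hand for 24 of the 30 genes (32 windows). Those printed are the 250 bases before the start, 5′ to 3′ as the table gives them, of Hmgcs1 at chr13:119690101-119690350 (plus strand), of Cyp51 at chr5:4104698-4104947 (minus strand), Hsd17b7 at chr1:169969206-169969455 (minus strand), Lss at chr10:76531355-76531604 (plus strand) and Idi1 at chr13:8885356-8885605 (plus strand), the enzymes in the table with the lowest changes, and of the regulators Srebf2 at chr15:82147019-82147268 (plus strand) and Insig1 at chr5:28071162-28071411 (plus strand). Capitals mark TCACNCC (a short form of the sterol regulatory element, which at 1 of its 2 places in Hmgcs1 extends to TCACNCCAC), CCAAT and the E-box CACGTG, on either strand.
Hmgcs1: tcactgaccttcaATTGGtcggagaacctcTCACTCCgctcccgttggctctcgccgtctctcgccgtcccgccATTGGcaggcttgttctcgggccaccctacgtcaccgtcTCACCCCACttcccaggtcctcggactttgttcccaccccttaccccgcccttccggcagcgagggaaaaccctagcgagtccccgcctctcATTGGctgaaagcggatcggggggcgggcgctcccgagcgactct
Cyp51: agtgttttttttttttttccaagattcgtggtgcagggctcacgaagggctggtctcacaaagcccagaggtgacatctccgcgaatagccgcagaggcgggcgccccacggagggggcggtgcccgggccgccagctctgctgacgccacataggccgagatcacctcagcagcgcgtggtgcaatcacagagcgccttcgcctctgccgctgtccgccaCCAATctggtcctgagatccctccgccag
Hsd17b7: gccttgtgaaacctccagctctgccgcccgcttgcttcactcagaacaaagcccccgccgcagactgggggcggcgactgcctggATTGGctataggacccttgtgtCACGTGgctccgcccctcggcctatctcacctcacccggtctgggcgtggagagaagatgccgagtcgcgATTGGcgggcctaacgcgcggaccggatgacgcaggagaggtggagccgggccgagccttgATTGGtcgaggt
Lss: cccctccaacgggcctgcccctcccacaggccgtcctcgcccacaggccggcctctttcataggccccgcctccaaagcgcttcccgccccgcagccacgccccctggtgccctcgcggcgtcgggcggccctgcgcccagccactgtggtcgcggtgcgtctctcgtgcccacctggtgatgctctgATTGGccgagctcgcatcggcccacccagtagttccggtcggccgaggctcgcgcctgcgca
Idi1: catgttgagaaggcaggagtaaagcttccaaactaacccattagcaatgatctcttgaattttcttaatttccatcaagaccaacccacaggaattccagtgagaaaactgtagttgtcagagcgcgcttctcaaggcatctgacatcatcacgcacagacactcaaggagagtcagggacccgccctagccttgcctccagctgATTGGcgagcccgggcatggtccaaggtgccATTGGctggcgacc
Srebf2: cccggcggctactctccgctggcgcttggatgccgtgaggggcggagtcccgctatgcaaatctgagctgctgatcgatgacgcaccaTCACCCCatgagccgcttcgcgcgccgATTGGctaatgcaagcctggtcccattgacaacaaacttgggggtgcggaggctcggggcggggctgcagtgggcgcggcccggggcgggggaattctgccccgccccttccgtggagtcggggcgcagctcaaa
Insig1: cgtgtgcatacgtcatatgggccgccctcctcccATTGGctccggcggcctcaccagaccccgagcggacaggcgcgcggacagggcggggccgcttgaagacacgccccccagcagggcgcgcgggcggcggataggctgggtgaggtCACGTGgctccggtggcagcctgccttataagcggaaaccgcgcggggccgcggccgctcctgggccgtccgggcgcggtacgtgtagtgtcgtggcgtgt

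The CCAAT box, bound by NF-Y, which is known to act beside SREBPs, was found on either strand in a window of all 14 sterol synthesis genes in the table. By genes it was in 21 of the 24 listed ones (87.5%), against 41.06% of all 27025 genes in the table. By windows of the 24 genes it was in 22 of 32 (68.75%), against 37.41% of all 32851 windows in the table. The GC box GGGCGG, bound by Sp1, was in 24 of the 32 windows (75%), against 35.66% of all. By genes it was in 20 of the 24 (83.33%, against 38.2%). The sterol regulatory element TCACNCCAC was in 1 window, that of Hmgcs1, where it starts 137 bases before the start (3.12%, against 1.24% of all windows). Its shorter form TCACNCC, which overlaps it, was in 5 windows (15.62%, against 15.63%), among them those of Srebf2 and Msmo1. CACGTG was in 6 windows (18.75%, against 7.15%), of which 2 were overlapping windows of Scap. By genes it was in 5 of the 24 (20.83%, against 8.09%). These matches describe letters within the windows and nothing beyond them. The genes compared with were not limited to those measured here or matched for level. Whether the shares are particular to genes under SREBPs was not tested.

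Of the 5 genes of SREBP control, Srebf1, Srebf2 and Insig2 read lower without overlap between the groups (60%, against 9.82% of all genes). Scap and Insig1 overlapped. Srebf1, which encodes SREBP-1, read 9.32, 9.28 and 9.44 in Mfrp rd6 and 9.60, 9.52, 9.74 and 9.64 in WT. Its change of -0.28 (SE 0.08, limma adjusted p = 0.119) was -0.25 without Mfrp rd6 replicate 2. Srebf2, which encodes SREBP-2, read 10.62, 10.36 and 10.66 in Mfrp rd6, against 10.75, 10.77, 10.88 and 10.73 in WT. The change of Srebf2 was -0.24 (adjusted p = 0.233), and -0.14 without that array. Insig2, an anchor of Scap in the endoplasmic reticulum, lay at 9.89, 9.80 and 9.83 in Mfrp rd6 and at 10.03, 10.05, 10.09 and 9.97 in WT (-0.20, adjusted p = 0.190), with the 3 mutant arrays close to each other.

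Insig1, the other anchor and itself a known SREBP target, did not follow the sterol enzymes on every array. It read 11.02, 10.54 and 11.22 in Mfrp rd6 and 10.91, 11.03, 11.22 and 10.96 in WT, a change of -0.10 (95% interval -0.43 to 0.23, limma adjusted p = 0.815). On replicate 2 it was the lowest of all arrays, while replicate 3 equalled the highest WT array. Without replicate 2 the change was 0.09. Scap, the escort protein, differed by 0.00 (95% interval -0.16 to 0.16).

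**Figure D2:**
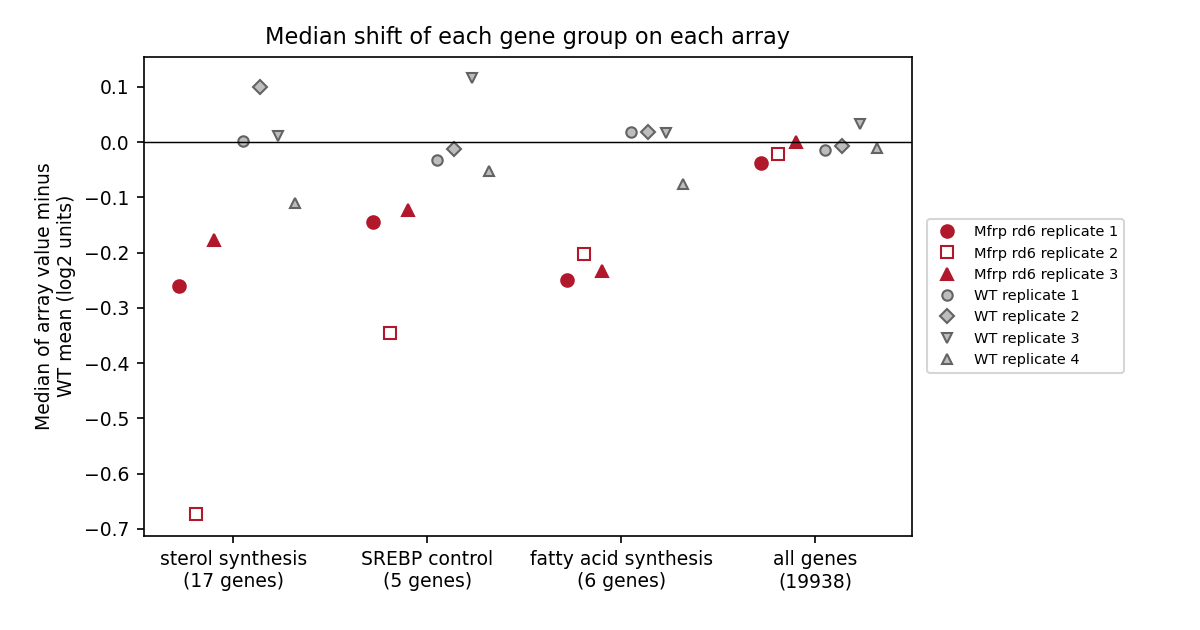
Median over each gene group of the array value minus the gene's WT mean, in log2 units, for each of the 3 Mfrp rd6 arrays (red) and 4 WT arrays (grey). Mfrp rd6 replicate 2 stands apart at -0.67 in sterol synthesis, while in fatty acid synthesis the 3 Mfrp rd6 arrays lie together between -0.25 and -0.20.

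The genes of sterol transport and uptake went separate ways. Stard4, a sterol carrier in the cytosol, read 7.57, 7.11 and 7.75 in Mfrp rd6 and 7.91, 7.99, 7.75 and 7.75 in WT, with Mfrp rd6 replicate 3 level with 2 WT arrays (-0.37, limma adjusted p = 0.237, and -0.19 without Mfrp rd6 replicate 2). Mylip, a ubiquitin ligase that removes lipoprotein receptors and is induced by liver X receptors (LXR) rather than SREBPs, read 10.20, 10.08 and 10.30 in Mfrp rd6 and 9.96, 10.10, 10.15 and 10.19 in WT. Its change of 0.09 (95% interval -0.09 to 0.28) was the highest of the 30 genes, and it was 0.15 without Mfrp rd6 replicate 2.

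In fatty acid synthesis all 6 genes had a negative change (100%, against 56.7% of all genes), with a median of -0.19, and 0 passed the test. Here the mutant arrays lay close together, at median deviations of -0.25, -0.20 and -0.23 in Mfrp rd6 replicates 1 to 3, against 0.02, 0.02, 0.02 and -0.08 in WT replicates 1 to 4. Leaving out Mfrp rd6 replicate 2 gave a median change of -0.25. Fasn, the fatty acid synthase, read 10.55, 10.49 and 10.55 in Mfrp rd6 and 10.84, 10.78, 10.82 and 10.71 in WT, with no overlap and a change of -0.26 (SE 0.07, limma adjusted p = 0.0920). Acly, which supplies cytosolic acetyl-CoA from citrate, read 9.65, 9.79 and 9.70 in Mfrp rd6, against 9.95, 9.95, 9.97 and 9.85 in WT (-0.22, adjusted p = 0.168). Both genes kept their size without Mfrp rd6 replicate 2, at -0.24 for Fasn and -0.26 for Acly.

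The remaining genes of the group cover malonyl-CoA supply, elongation and desaturation. Acaca, which makes malonyl-CoA, differed by -0.24 on the brighter of 2 probe sets and by -0.27 on the other, with overlapping groups on the first. Elovl6, the elongase of saturated chains, differed by -0.17 without overlap, and by -0.115 when Mfrp rd6 replicate 2 was left out. Scd1, a stearoyl-CoA desaturase, read 8.53, 9.37 and 8.5 in Mfrp rd6 and 8.76, 9.16, 8.79 and 8.83 in WT. Mfrp rd6 replicate 2, low for the sterol enzymes, was here the highest of the 7 arrays, and the other mutant arrays were below all WT arrays. The change of Scd1 was therefore -0.09 with all arrays (95% interval -0.53 to 0.36) and -0.37 without replicate 2 (limma adjusted p = 0.261). Its paralogue Scd2 read 12.21, 12.04 and 12.23 in Mfrp rd6, against 12.28, 12.28, 12.31 and 12.19 in WT (-0.11, adjusted p = 0.563, and -0.045 without replicate 2), and did not share the high value. The paralogues are alike in sequence, and how far their probes cross-hybridise was not tested.

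**Figure D3:**
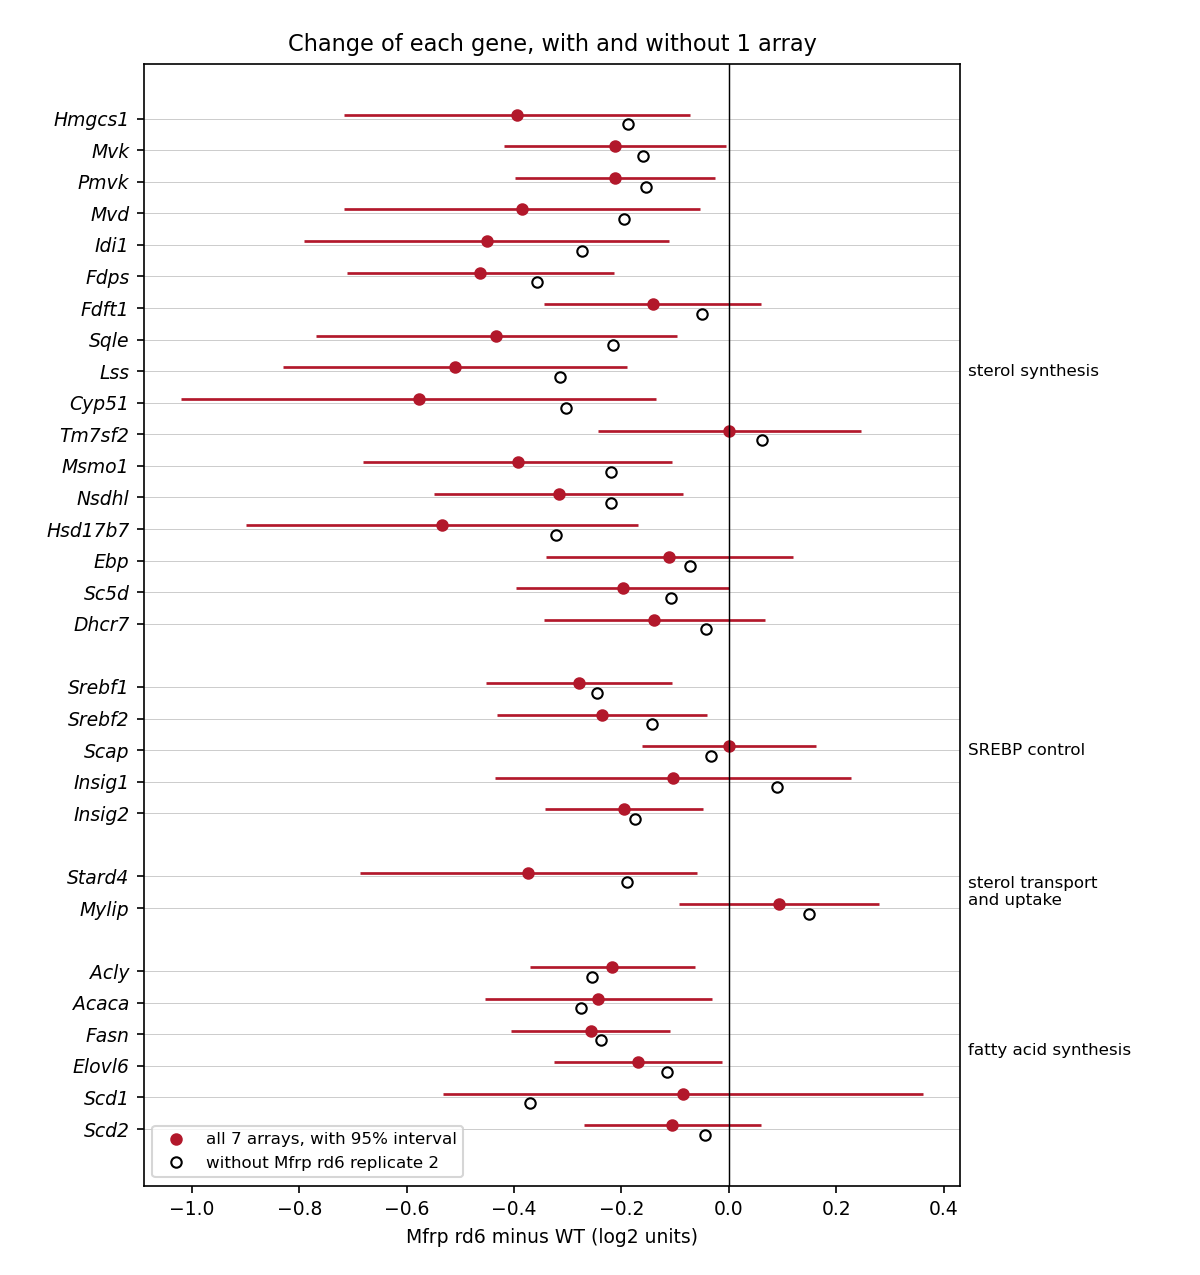
Log2 change (Mfrp rd6 minus WT) of the 30 genes by role; filled red points with bars give the limma estimate and its 95% interval from 7 arrays, open points the estimate without Mfrp rd6 replicate 2. Without that array most sterol genes move toward 0, as Cyp51 at -0.58 with it and -0.30 without it, while Fasn stays near -0.25 and Scd1 moves to -0.37.

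No call on any of the 30 genes held across settings. Fdps, Fasn and Srebf1 passed with an intensity trend and robust moderation (adjusted p = 0.0198, 0.0187 and 0.0469), Fdps and Fasn when only genes above the median level were tested, Fdps after median centring (adjusted p = 0.0430) and Srebf1 with array weights (adjusted p = 0.0448).

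Other genes of the pathway, 36 measured, gave 4 that fell and 0 that rose at a limma adjusted p under 0.05, where 0.813% of all genes fell and 1.34% rose. Their median change was -0.09, against -0.02 for all genes, and 25 of 36 changes were negative (69.4%, against 56.7% of all genes). Acss2, the cytosolic enzyme that makes acetyl-CoA from acetate and a known SREBP target, fell by 0.56 on the log2 scale (SE 0.09, adjusted p = 0.0137), 32.4% lower on the linear scale. It read 8.70, 8.69 and 8.63 in Mfrp rd6, against 9.11, 9.45, 9.13 and 9.26 in WT, with a gap wider than the spread of either group. With each array left out in turn, Acss2 passed 6 of 7 times, the exception being the fit without Mfrp rd6 replicate 1 (adjusted p = 0.0507).

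Tmem97, a sterol-regulated membrane protein also known as the sigma-2 receptor, read 9.30, 9.12 and 9.21 in Mfrp rd6 and 9.58, 9.72, 9.86 and 9.64 in WT. It fell by 0.49 (limma adjusted p = 0.0191), a call lost when Mfrp rd6 replicate 2 (-0.45, adjusted p = 0.0843), Mfrp rd6 replicate 3 (adjusted p = 0.0594) or WT replicate 2 (adjusted p = 0.0503) was left out. Lbr, the lamin B receptor, which carries the same sterol reductase activity as Tm7sf2, read 8.68, 8.57 and 8.56 in Mfrp rd6 and 8.93, 9.0, 8.91 and 9.07 in WT. Lbr fell by 0.37 (adjusted p = 0.0295), and Cyp27a1, the mitochondrial sterol 27-hydroxylase, read 9.65 to 9.74 in Mfrp rd6 and 9.98 to 10.23 in WT and fell by 0.37 (adjusted p = 0.0458). For all 4 genes the groups did not overlap and the 3 mutant arrays lay close together. With 1 array fewer, whichever of the 7 it was, Lbr did not pass (adjusted p of 0.050 to 0.114), nor did Cyp27a1 (adjusted p of 0.0702 to 0.170). With the skeletal muscle mean in the fit, 0 of the 4 genes passed, at changes of -0.49 for Acss2, -0.63 for Tmem97, -0.34 for Lbr and -0.34 for Cyp27a1. Nus1, a subunit of the enzyme that makes dolichol precursors, lay just short of the threshold (-0.34, limma adjusted p = 0.0501) and is named for that after its values were seen. It passed in 4 of 20 alternative settings.

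By group, 2 of 9 genes of isoprenoid and sterol accessory steps fell, 1 of 12 of fatty acid supply, 0 of 5 of SREBP processing and Insig turnover, and 1 of 10 of LXR and sterol handling. Of all genes 0.813% fell. In SREBP processing the protease Mbtps1, which makes the first cut in SREBPs, had the lowest change, at -0.14 (limma adjusted p = 0.312). At an unadjusted limma p under 0.05, only Mbtps1 of the 5 was lower (20%), against 9.37% of all genes.

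**Figure D4:**
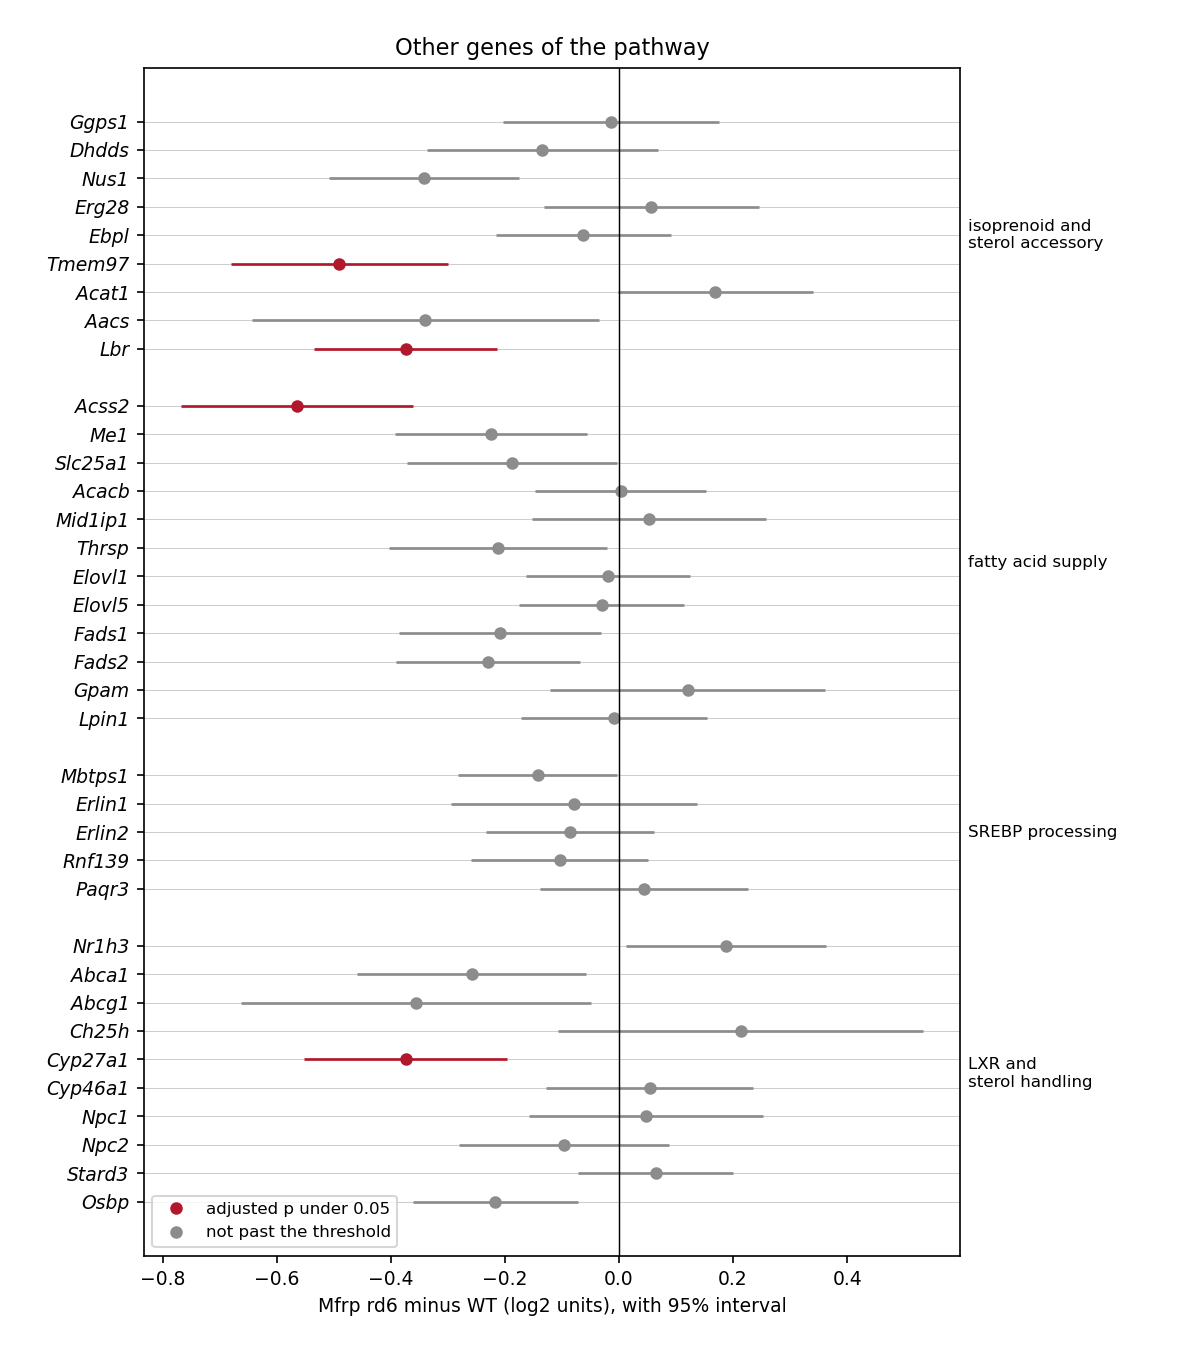
Log2 change (Mfrp rd6 minus WT) with its 95% interval from limma for 36 other genes of the pathway in 4 groups; red marks an adjusted p under 0.05. The 4 red points, Tmem97, Lbr, Acss2 and Cyp27a1, lie between -0.56 and -0.37.

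Markers of other cell types were measured on the same arrays. Of all genes, 1.34% rose and 0.813% fell at a limma adjusted p under 0.05. At an unadjusted limma p under 0.05, 5.98% of all genes were higher and 9.37% lower. Beside the microglia and macrophage list (11 of 12 genes rose) and the skeletal muscle list (2 of 14 rose), 2 of 10 choroidal endothelial genes rose, with a mean of 7.47 to 7.86 in Mfrp rd6 and 6.97 to 7.45 in WT. The mean of 12 surface epithelium and meibomian gland genes was 8.77 to 8.93 in Mfrp rd6 and 8.95 to 9.07 in WT, and 0 of 12 passed (3 lower at an unadjusted limma p under 0.05). Krt5, its brightest gene, read 13.15 in Mfrp rd6 and 13.14 in WT on average. Of 10 rod genes 0 passed (4 lower at an unadjusted p under 0.05), with a mean of 6.55 to 6.86 in Mfrp rd6 and 6.77 to 8.02 in WT. The adipocyte mean was 5.95 to 6.12 in Mfrp rd6 and 5.85 to 6.06 in WT, with 1 of 8 genes higher and 6 of 8, Adipoq among them, below the median probe set of 6.55. The mean of Schwann cell and myelin genes was 7.77 to 7.80 in Mfrp rd6 and 7.78 to 7.98 in WT, with 0 of 6 past the threshold, also at an unadjusted p under 0.05. Of the 11 RPE genes Lrat fell and 0 rose. At an unadjusted limma p under 0.05, Lrat and Rpe65 were lower and Pmel and Mlana higher. The brightest gene of each list by its mean over all 7 arrays, with its averages in Mfrp rd6 and in WT, was Rgr for RPE (13.27 and 13.35) and Ckm for muscle (9.94 and 8.22). For microglia it was Csf1r (10.49 and 10.09), the 1 gene of that list that did not pass, and in Mfrp rd6 alone C1qb was brighter (11.30, against 8.21 in WT). The median change of the microglia list was 2.59. It was Flt1 for endothelium (8.64 and 8.43), Gnat1 for rods (10.04 and 10.71), Lipe for adipocytes (8.38 and 8.44) and Pmp22 for Schwann cells (11.60 and 11.65). Once the mean of the muscle genes was included in the fit, the median change of the 30 SREBP genes was -0.13, and 0 of 30 passed. With the microglia and macrophage mean, which nearly coincides with genotype, the median change was 0.76, and 0 of 30 and 0 of all genes passed. With the mean of another list in its place, the median change was -0.24 (adipocyte), -0.21 (Schwann and myelin) and -0.27 (surface epithelium). In each 0 of 30 passed, where 282, 247 and 57 of all genes did. The surface epithelium means of the groups did not overlap either. The part of the rod, endothelial and RPE lists was not tested, and in such tissue fewer cells of a type and less RNA per cell cannot be told apart.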

How the data were processed

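RNA of 7 RPE samples was measured on 1 array each. Per the submitters' processing notes, the authors made the deposited log2 values with Affymetrix Expression Console and RMA, which corrects background, equalises the arrays and summarises each probe set, so that changes of dim genes are understated; for their versions and the genome build, the sources used here name nothing. Precision is limited by the number of arrays. The median SE of a gene's log2 change was 0.09. Gene names came from the platform's annotation, in which 21789 of 35556 probe sets had 1 symbol, 1621 several and 12146 none. The probe set with the highest mean stood for a gene. Genes were fitted with limma 3.58.1 (R 4.3.3) as Mfrp rd6 minus WT, without filter or block, adjusted by Benjamini-Hochberg over all 19938 genes at 0.05, and the fit was tested on simulated data. Tables and figures used Python 3.11.15, pandas 2.3.3 and matplotlib 3.10.9.

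The members, lists and tests were chosen with earlier results of these data known. All members are named, of the other pathway genes those past the threshold and the one with the largest change in each list, and of each marker list the brightest. Alternatives were other normalizations, a filter, moderation with a trend, array weights, averaged probe sets, a replicate block, marker means as covariates and leaving out arrays. Covariates of microglia and surface epithelium were added after seeing the data. Motifs were searched in RefSeq promoter windows of GRCm38.p6.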

Additional observations from a re-analysis of the deposited data

Results flagged for a closer look

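Among 39 values tested for 1 WT array far from the other 3, 3 stood out, where chance gives about 1 in 20. Scap read 10.88 in WT replicate 3, above the other WT arrays. Acly read 9.85 in WT replicate 4, below the other WT arrays. The median deviation of the fatty acid synthesis genes was -0.076 in WT replicate 4, while the other WT arrays lay together at 0.02.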

How the results depend on the processing

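The count of 0 of 30 SREBP genes past the threshold stayed at 0 in 15 of 20 alternatives. It was 1 with median centring or array weights, 2 of the 29 that were tested among genes above the median level, 3 with a trend and robust moderation, and 0 to 1 when 1 array was left out, the 1 being Fdps without WT replicate 4. The median change of the 30 genes was -0.26 to -0.19 when 1 array was left out, -0.13 with the mean of the skeletal muscle genes in the fit and 0.76 with the microglia and macrophage mean, which nearly coincides with genotype and left 0 of all 19938 genes past the threshold. The count of other pathway genes was 4, and 1 to 2 when 1 array was left out. It was 5 with median centring or averaged probe sets, 5 of the 32 tested among genes above the median level, and 6 with a trend and robust moderation. It was 0 with the replicate block, with the skeletal muscle, microglia and macrophage or surface epithelium mean as a covariate and without WT replicate 3 and Mfrp rd6 replicate 2 together, and 1 with the adipocyte or Schwann and myelin mean. Where these calls were lost the changes stayed negative: Acss2, Tmem97, Lbr and Cyp27a1 were at -0.56, -0.51, -0.34 and -0.41 with the block, at -0.72, -0.66, -0.44 and -0.49 with the surface epithelium mean and at -0.59, -0.21, -0.26 and -0.03 with the microglia and macrophage mean. The count over all genes was 429, and 211 to 325 when 1 array was left out, 718 with a trend and robust moderation, 679 with array weights, 225 with the replicate block, 193 without WT replicate 3 and Mfrp rd6 replicate 2 together, and 50, 282, 247 and 57 with the skeletal muscle, adipocyte, Schwann and myelin, and surface epithelium means. The shorter motif TCACNCC was in the windows of 4 genes, against 1 for TCACNCCAC. Same-numbered replicates did not deviate together (correlations of -0.30, -0.07 and 0.04), where unlike-numbered ones gave -0.27 to 0.37. The samples were not taken as pairs, though so few arrays cannot show whether same-numbered ones share more than a number. The cause of these differences was not tested.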

Other observations

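Plin4, a coat protein of lipid droplets on the adipocyte list, rose in Mfrp rd6 while the other 7 adipocyte genes did not pass the test. It read 8.02, 7.90 and 7.93 in Mfrp rd6, against 7.23, 6.84, 7.28 and 7.28 in WT, a change of 0.79 (limma adjusted p = 0.0072) with no overlap between the groups. The lipid droplet protein Plin1 differed by 0.11 and the adipocyte hormone Adipoq by 0.04. Among the sterol handling genes that did not pass, the LXR targets Abca1 and Abcg1 differed by -0.26 and -0.36 (adjusted p = 0.204 and 0.248), and Nr1h3, which encodes LXR alpha, by 0.19 (adjusted p = 0.285). These genes were named after their values were seen.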
